A study of Mus musculus with 6 samples.

Results

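This account describes the promoter regions that were enriched over input DNA in immunoprecipitates from TEAD4-expressing cells and from control cells alike. There were 375 such regions, made of 872 of the 428020 windows measured (0.204%), and 402 of 16511 genes (2.43%) had at least 1 member window. C2C12 cells are mouse myoblasts that form myotubes when serum is reduced. They had been infected with a retroviral vector for Flag-HA-tagged TEAD4 (2 samples, called duplicates) or with the empty control vector (1 sample). In all 3 samples the infected cells were selected with puromycin, differentiated for 5 days in 2% horse serum, fixed for 10 min in 0.4% formaldehyde and precipitated with an anti-Flag antibody. On every array 4 µg of precipitated (IP) DNA carried Cy5 and 4 µg of input DNA carried Cy3, and each sample was hybridised to 2 Agilent promoter array designs. TEAD4 here is an introduced protein with a tag, in infected populations for which no clones are named, and the labels do not say whether the duplicates came from separate cultures. The assay reads DNA and no RNA, so the state of the cells could not be checked against marker genes.

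The level used throughout is the log2 ratio of IP to input signal, centred on each array's median, so that 0 is the median probe and 1 is 2-fold above it. A window is a probe with its neighbours within 500 bp, at least 3 probes in all, and its level is their mean. A window was a member where both TEAD4 samples and the control were each at 1 or more and neither TEAD4 sample was 1 or more above the control, and overlapping member windows were merged. The levels of all 3 samples therefore chose the members, and they are given as a description with no test. The empty-vector sample has no replicate: with 2 samples against 1 the smallest p an exact permutation test allows is 0.333.

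TEAD4 belongs to a family of DNA-binding factors that recognise a short motif and act through the co-activators YAP and TAZ, and in muscle cells TEAD factors take part in the expression of contractile and differentiation genes. A control immunoprecipitation from cells without the tagged protein shows what the antibody, the beads and the chromatin preparation recover on their own. Promoters active in many cell types are often rich in CpG dinucleotides and hold GC boxes, the binding site of Sp1-type factors.

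The promoters of 5 genes with members near their starts are shown for their motifs and CpG content. These are RefSeq promoters matched by gene symbol and not the sequences of the enriched windows. The top windows centred at other distances from the start, for example 449 bp downstream in Elp6, 277 bp downstream in Slc39a13 and 465 bp upstream in Rsrp1. The genes are those with a top window within 500 bp of the start, among those named for high or closely matched levels, that have a single entry in the RefSeq promoter table of GRCm38.p6 (250 bases before the start to 50 after it, read along the gene). Capitals mark the TEAD motif GGAATG or its reverse complement CATTCC, the GC box GGGCGG or CCGCCC, and the E-box CAGCTG, none of which overlap here.
1700013G24Rik: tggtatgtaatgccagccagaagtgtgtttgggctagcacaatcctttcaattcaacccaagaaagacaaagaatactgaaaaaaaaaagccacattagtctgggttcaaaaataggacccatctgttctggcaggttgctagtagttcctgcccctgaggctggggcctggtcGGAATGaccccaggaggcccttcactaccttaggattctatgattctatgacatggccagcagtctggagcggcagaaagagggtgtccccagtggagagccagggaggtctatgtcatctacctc
Elp6: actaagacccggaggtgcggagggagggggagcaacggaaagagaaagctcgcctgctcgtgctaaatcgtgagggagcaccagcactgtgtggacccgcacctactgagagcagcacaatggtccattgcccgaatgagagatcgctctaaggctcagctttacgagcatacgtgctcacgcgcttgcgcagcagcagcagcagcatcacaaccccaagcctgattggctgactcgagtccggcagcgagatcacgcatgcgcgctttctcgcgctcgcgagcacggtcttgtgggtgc
Fto: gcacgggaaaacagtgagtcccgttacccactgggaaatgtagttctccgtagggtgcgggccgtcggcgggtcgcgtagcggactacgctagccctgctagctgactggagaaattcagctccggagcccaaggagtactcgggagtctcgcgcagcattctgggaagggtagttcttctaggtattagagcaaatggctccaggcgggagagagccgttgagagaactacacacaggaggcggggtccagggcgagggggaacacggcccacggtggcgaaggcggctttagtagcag
Rsrp1: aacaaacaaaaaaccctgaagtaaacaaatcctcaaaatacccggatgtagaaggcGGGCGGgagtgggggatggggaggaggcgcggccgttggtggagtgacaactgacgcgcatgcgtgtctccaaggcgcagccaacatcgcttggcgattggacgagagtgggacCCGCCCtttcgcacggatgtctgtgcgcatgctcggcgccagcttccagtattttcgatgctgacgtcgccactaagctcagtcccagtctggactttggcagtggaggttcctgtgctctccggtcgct
Slc39a13: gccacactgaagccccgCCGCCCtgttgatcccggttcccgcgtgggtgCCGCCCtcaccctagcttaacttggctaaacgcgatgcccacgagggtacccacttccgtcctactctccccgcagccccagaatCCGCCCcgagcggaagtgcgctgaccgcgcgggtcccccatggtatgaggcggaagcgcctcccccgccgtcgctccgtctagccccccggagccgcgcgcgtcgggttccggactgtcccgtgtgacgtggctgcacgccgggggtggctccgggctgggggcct
They lie at chr4:137453046-137453345 (plus strand), chr9:110304942-110305241 (plus), chr8:91313275-91313574 (plus), chr4:134923375-134923674 (plus) and chr2:91070266-91070565 (minus) of that build. 1700013G24Rik alone among them held a TEAD motif, 1 copy in a promoter with 2 CpG dinucleotides and a CpG ratio (observed over expected from base composition) of 0.11. The other promoters were CpG-rich, with 25 CpGs in Elp6, 23 in Fto, 24 in Rsrp1 and 36 in Slc39a13 and CpG ratios of 0.92, 0.87, 0.95 and 0.95. Rsrp1 held 2 GC boxes and Slc39a13 held 3, while Elp6 and Fto held none of the 3 motifs.

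The promoters of genes with a member window near the start had a median GC content close to that of all measured promoters, but were more often CpG-rich. They cover part of the 402 genes with a member window. Of 204 genes with a member window within 500 bp of the start, 173 were in the promoter table, with 223 promoters. Their median GC content was 59% (quartiles 54.3% and 64%), against 58.3% for all promoters with a window there and 52.7% for all promoters of the table. A GC box was in 58.3% of them, against 52.8% of promoters with a window, 62.7% of those enriched in the control only, 38.4% of those with TEAD4 1 or more above the control in both samples, and 35.7% of the table. The CpG ratio was 0.6 or more in 66.8% of member promoters, 55.6% of promoters with a window and 66.9% of those enriched in the control only. It was so in 48.8% of those with TEAD4 1 or more above the control in both samples. The TEAD motif was in 21.5% of member promoters, against 13% of promoters with a window, 14.7% of the table and 11.5% of promoters enriched in the control only. Where TEAD4 stood 1 or more above the control in both samples, the motif was in 36% of 86 promoters. The members' share of TEAD motifs thus lay between those of the promoters enriched in the control only and of those enriched above it. These sets of genes are not exclusive. Of the 402 genes with a member window, 95 (23.6%) also had a window, at any distance, with TEAD4 1 or more above the control. The promoters enriched in the control only numbered 10934, and those with a window 15348. How the shared genes bear on the motif shares was not tested. The E-box, bound by myogenic factors such as MyoD, was in 17.5% of member promoters and 16.3% of the table.

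The control sample gave wider ratios than the TEAD4 samples, which bears on every value below. Over all windows its SD was 1.04, while TEAD4 sample 1 had 0.38 and sample 2 had 0.40. The control's median IP spot was 1.84 and 2.04 times the local background on designs 1 and 2, against 3.62 to 5.41 in the TEAD4 samples, and its arrays were read with extended dynamic range while the TEAD4 arrays were not. Windows at 1 or more made up 26.4% of all windows in the control, and 0.66% were at 1 or more in both TEAD4 samples at once. Taken singly, TEAD4 samples 1 and 2 had 98.9% and 97.8% of windows below 1, and the control had 73.6%. The members' top windows (the member window of each region whose lowest sample was highest) lay at a median percentile of 99.5 and 99 among all windows of TEAD4 samples 1 and 2, but of 84.8 in the control. All 375 were within the top 5% in both TEAD4 samples and 47 were in the control. "Alike" therefore holds for the size of the ratio and not for its rank among the windows of a sample.

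In the TEAD4 samples the members were levels of moderate size, and the control was most often the highest of the 3. The top windows ran from 1.00 to 2.54 in TEAD4 sample 1 (median 1.24), from 1.00 to 3.51 in sample 2 (median 1.32) and from 1.01 to 4.73 in the control (median 1.52). The control was highest in 205 regions and lowest in 81. All 3 samples were within 1 of each other in 308 regions and within 0.5 in 197, and the TEAD4 samples were within 0.5 of each other in 326. The lowest of the 3 samples was below 1.1 in 141 regions, so many members lay close to the threshold. Just inside it were Septin11 [Sept11], Rara and Dok7, with 1.001, 1.001 and 1.002 in TEAD4 sample 2; just outside were Fis1, at 1.000 in TEAD4 sample 1, and Actc1 and a shared window of Map7d1 and Trappc3, at 1.000 in the control, each a little below 1 before rounding. At the margin against the control, Clca1 [Clca3] with 3.203 in sample 2 and 2.213 in the control lay just inside. Cryab lay just outside in one window, with 2.060 and 1.012.

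Most of the membership depended on how the spot signals were processed. The normexp method fits the background to the mean and local background signals, and here an offset of 50 was added to both channels. It started from mean spot signals and not from the processed signals used elsewhere. These steps were not run apart, so which of them changed the values was not tested. With normexp the SD of the control fell to 0.36, next to 0.33 and 0.32 in the TEAD4 samples. Windows at 1 or more in the control then made up 2.1% of all windows, and of 1674 windows at 1 or more in both TEAD4 samples 49 (2.93%) reached 1 in the control, against 912 of 2823 (32.3%) without it. There were 23 regions under this correction, and they overlapped 18 of the 375. In the top windows of the 375 the median was then 0.95 for TEAD4 sample 1, 1.14 for sample 2 and 0.35 for the control, and 357 of them were above 0 in the control. When the arrays were instead scaled to a common spread, 108 of the 375 were overlapped by a member region.

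The 18 regions that overlapped a member region under normexp, singled out after their values were seen, belonged to Ppil3, H3f3a, H2aw [Hist3h2a], Ghdc, Gadd45g, Qk, Man1b1, Sec62 [Tloc1], Notch2, Snx7, Cavin4 [2310039E09Rik], Baiap2l1, Hoxa10, Capg, Tpi1, Tnfrsf1a, Akt2 and Zfhx3 [Atbf1]. The control was the highest of the 3 samples in 16 of them before the correction, and 5 had their top window within 500 bp of a start. With both normexp and scaling 14 were overlapped, and 11 with loess normalization as well. The overlap does not mean that the top window itself passed: with normexp it was at 1 or more in all samples in 9 of the 18 and below 1 in a sample in the other 9, in 8 of them in the control. The lowest control levels were those of Qk (0.24) and Gadd45g (0.61). Notch2, a receptor of the Notch pathway, was at 1.72 and 1.62 in TEAD4 and 2.53 in the control, and with normexp at 2.04 and 1.72 with 1.17. Tnfrsf1a, a receptor for tumour necrosis factor, was at 1.56 and 1.19 with 2.85 in the control, and with normexp at 1.72 and 1.31 with 1.22. Hoxa10, a homeobox transcription factor, was at 1.31 and 2.10 with 2.66, and with normexp at 1.20 and 2.10 with 1.14. These 3 are among the 9 whose top window was at 1 or more in every sample either way.

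Enrichment in TEAD4 did not track enrichment in the control in a simple way. Grouped by the lower of the TEAD4 samples, the share of windows at 1 or more in the control was 10.4% below -0.5, 20.6% from -0.5 to 0, 42.5% from 0 to 0.5 and 43.5% from 0.5 to 1. It was then 34.2% from 1 to 1.5, 24% from 1.5 to 2 and 13.8% of the 80 windows at 2 or more. The share was thus highest just below the threshold and lower among the strongest TEAD4 windows. Across all windows Pearson's r was 0.57 between the TEAD4 samples, 0.33 between TEAD4 sample 1 and the control and 0.23 between sample 2 and the control; neighbouring windows share probes, and all samples share the probe sequences. Among windows at 1 or more in both TEAD4 samples, 872 (30.9%) were members, 1120 (39.7%) stood 1 or more above the control in both samples, and 40 were at 1 or more in the control but had a TEAD4 sample too far above it. Members were 0.771% of the control's enriched windows.

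**Figure D1:**
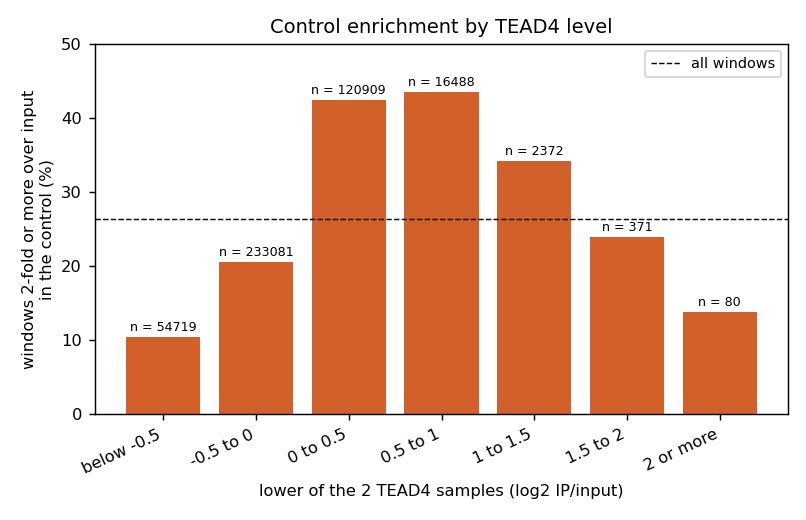
Bars give the percentage of windows at 1 or more (2-fold over input) in the control sample, for windows grouped by the lower log2 IP/input of the 2 TEAD4 samples, with the number of windows above each bar; the dashed line is the 26.4% of all windows. The bars peak at 43.5% between 0.5 and 1 and fall to 13.8% at 2 or more.

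The 15 regions highest in all 3 samples had a lowest sample of 1.61 to 1.96. The first by the lowest of its samples was Zfhx3 [Atbf1], a large zinc finger and homeobox transcription factor, on chromosome 8 from 111603937 to 111605652 (coordinates as in the array files, whose genome build was not given in the sources used here). Its top window, 1137 bp downstream of the annotated start, was at 2.54 and 2.21 in TEAD4 (2.37 ± 0.23, SD, n = 2) and 1.96 in the control, so the control was a little below both. Sec62 [Tloc1], which encodes a component of the protein translocation machinery of the endoplasmic reticulum, was at 1.84, 2.40 and 4.04, with the control far above both TEAD4 samples. Its top window lay 4314 bp upstream and held 3 probes, each at 1 or more in every sample. Elp6 [Tmem103], a subunit of the Elongator complex, was at 1.97, 1.82 and 1.77, within 0.21 of each other. Mcm7, a subunit of the replicative helicase, was at 1.67, 1.88 and 1.85, also within the difference between the TEAD4 samples. Its region lay 617 bp downstream of the start on chromosome 5.

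Fto, which encodes an RNA demethylase, had 8 member windows, as many as Trim16 and Eif4ebp1 and more than the other regions, on chromosome 8 from 94202760 to 94204718. Its top window, 201 bp downstream of the start, was at 1.76 and 2.04 in TEAD4 (1.90 ± 0.20, SD, n = 2) and 2.28 in the control. It held 7 probes, of which 5 were at 1 or more in every sample, and without the highest probe of each sample the lowest level was still 1.71. Arf2, a small GTPase of vesicle traffic, was at 1.71, 1.85 and 2.70 at its start, where input spots were dim, at percentile 6.47, 26.5 and 5.91 among windows. 1700013G24Rik was at 1.90, 2.55 and 1.82, and Rassf7, of the Ras association domain family, at 1.71, 1.90 and 1.63. In both genes the control lay just below the lower TEAD4 sample.

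Ptbp1, a repressor of alternative exons, was at 1.74, 1.64 and 2.36 in a window of 3 probes 4554 bp upstream. Tns2 [Tenc1], a tensin of focal adhesions, was at 1.65, 1.64 and 1.78, within 0.14 over all samples. Zfp40, a zinc finger protein, was at 1.62, 1.78 and 2.06 in a window 51 bp upstream of its start. Of these 3 only Ptbp1 fell below 1 without each sample's highest probe, to 0.80 in its lowest sample. Arsj, a member of the sulfatase family, was at 1.92, 3.15 and 2.90. Its 3 probes had some of the dimmest input spots on the arrays, at percentile 0.11, 3.1 and 0.775, and with normexp its levels were -0.22, 2.39 and 0.35.

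**Figure D2:**
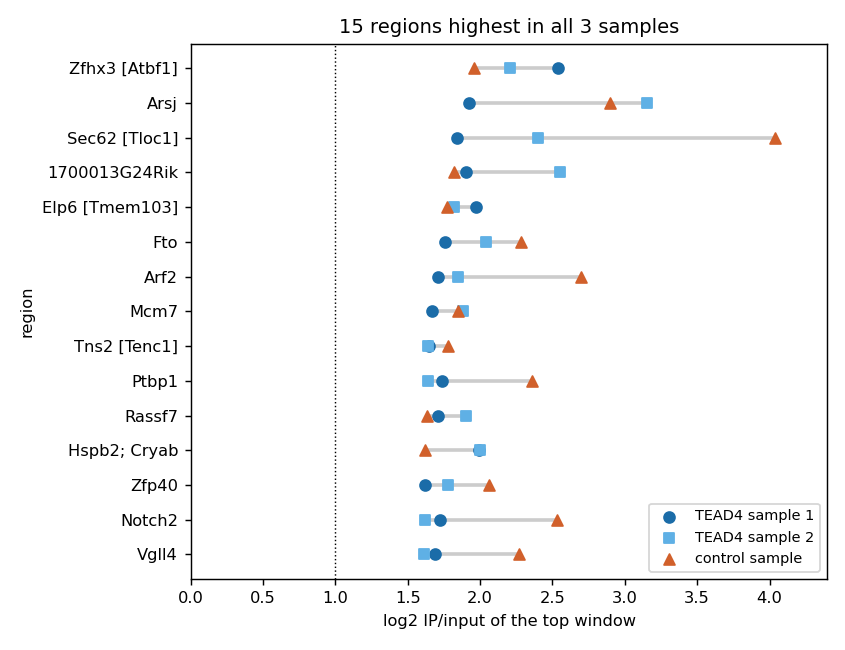
For the 15 regions whose lowest sample was highest, the log2 IP/input of the top window is plotted in each of the 3 samples, with a grey bar over their range and a dotted line at the threshold of 1. Zfhx3 leads with 1.96 in its lowest sample, and the widest bar is that of Sec62, from 1.84 to 4.04.

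The other regions named for their number of windows were those of Trim16, Eif4ebp1, Snx7 and Blnk, with 8, 8, 7 and 7. Eif4ebp1, whose product holds back cap-dependent translation, was at 1.54 and 1.36 in TEAD4 and 1.97 in the control, with 6 of its 8 probes at 1 or more in all samples. Trim16, a tripartite-motif protein, was at 1.61, 1.59 and 2.01, and Snx7, a sorting nexin, at 1.68, 1.59 and 1.78. Blnk, an adaptor of B-cell receptor signalling, was at 1.66 ± 0.23 (SD, n = 2) in TEAD4 and 2.37 in the control. In these 4 the control was the highest sample. Regions with 7 windows were taken by their lowest sample, and 3 others had as many. Tlcd2 [2010305C02Rik] at 2.00, 2.14 and 1.41, Ldb1 at 1.67, 1.42 and 1.40 and the region of Tbc1d10b and Mylpf at 1.70, 1.46 and 1.44 each had the control lowest. These 3 are named outside the rule, after their values were seen.

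In the regions with the closest values the 3 samples were equal to the second decimal or nearly so. Trip6, a LIM protein of the zyxin family, was at 1.29 in each. The promoter shared by Tmem50a and Rsrp1 [D4Wsu53e] was at 1.07, 1.08 and 1.07, but none of its 3 probes was at 1 or more in every sample. Bin1, which bends membranes in T-tubules, was at 1.08, 1.11 and 1.08, Lrig2 at 1.18, 1.18 and 1.14, and the homeobox gene Meis2 [Mrg1] at 1.06, 1.10 and 1.08. Each of these 5 was a single window whose lowest level fell below 1 without the highest probe of each sample.

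The highest control value belonged to Rplp0 [Arbp], a protein of the ribosomal stalk, at 4.73 against 1.26 and 2.54 in TEAD4, in 3 probes 1262 bp upstream. Slc39a13, a zinc transporter, followed Sec62 with 3.50 in the control against 1.27 and 1.25, 277 bp downstream of its start. The highest TEAD4 means were those of Dgat2, an enzyme of triglyceride synthesis, at 2.55 ± 1.35 (SD, n = 2), of Arsj at 2.53 ± 0.87 (SD, n = 2), and of the promoter shared by Tor1aip1 and Tor1aip2 [Ifrg15] at 2.46 ± 0.08 (SD, n = 2). In Dgat2 the TEAD4 samples were far apart, at 1.60 and 3.51, on both sides of the control at 2.85. Tor1aip1, which encodes a protein of the inner nuclear membrane, was even in TEAD4, at 2.51 and 2.40, with the control at 1.59. All 3 of these windows hold 3 probes.

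Genes that respond to YAP were represented by 6 of the 36 with a window: Ccn1 [Cyr61], Dab2, Zyx, Wwtr1, Thbs1 and Fstl1. Beside this 16.7%, 2.43% of all genes had a member window. Of the same 36 genes, 11 had a window enriched in both TEAD4 samples, beside 5.2% of all genes. Of all genes with such a window, 46.9% (402 of 858) had a member window. The rule used these values, and nothing is read from the shares. Dab2, an endocytic adaptor, was at 1.20 and 1.53 in TEAD4 and 1.93 in the control. Zyx, the focal adhesion protein zyxin, was at 1.25, 1.14 and 1.56. Wwtr1, which encodes the co-activator TAZ itself, was at 1.21, 1.21 and 1.09, and Fstl1, a secreted glycoprotein, at 1.01, 1.13 and 1.13. Dab2 and Zyx were thus higher in the control, and in Wwtr1 and Fstl1 all samples lay near the threshold.

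Ccn1 and Thbs1, both matricellular proteins, were members only at the flank of a peak where TEAD4 stood above the control. In Ccn1 the member window, 2293 bp upstream, was at 1.76, 1.80 and 1.28. The window 1863 bp upstream was at 1.61 and 2.48 in TEAD4 and 0.32 in the control. In Thbs1 the member window, 1736 bp upstream, was at 1.64, 1.46 and 1.05, while the window 1354 bp upstream was at 2.40, 2.33 and -0.55. Trip6 had the same arrangement, with 2.85 and 2.60 in TEAD4 and 0.58 in the control at 156 bp downstream of its start and 1.29 in each sample at 692 bp. On the outer side of the member window the order turned: in Thbs1 the window 2337 bp upstream was at 0.04 and 0.04 in TEAD4 and 2.56 in the control, and in Trip6 that at 1322 bp downstream was at 0.46, 0.27 and 1.58. In Ccn1 the window 2820 bp upstream was at 0.78, 0.43 and 1.54. In Thbs1 and Trip6 the member window thus lay close to where rising TEAD4 and falling control levels crossed. In Ccn1 the crossing lay farther out than the next window. That window, 2524 bp upstream, was at 1.48 and 1.33 in TEAD4 and 0.87 in the control. The window 2708 bp upstream was at 1.05, 0.84 and 1.42.

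Zfhx3 and Fto each had a run of member windows. In Zfhx3 the order of the samples turned too. The window 190 bp downstream of its start was at 0.60 and 0.82 in TEAD4 and 2.32 in the control. The levels crossed within the run. At 827 bp TEAD4 was at 2.08 and 1.82, below the control at 2.84. At 1137 bp TEAD4 was at 2.54 and 2.21, above the control at 1.96. The 6 member windows of Zfhx3 spanned 588 to 1425 bp downstream of the start, where the control fell from 2.84 at 827 bp to 1.34 at 1425 bp. At 1681 bp the control was at -0.02 and at 1853 bp at -0.39, with TEAD4 still between 1.27 and 1.87. In Fto the windows from 234 bp upstream to 602 bp downstream were all members, with the control between 1.57 and 2.28 and the TEAD4 samples between 1.18 and 2.07. Farther downstream the samples of Fto fell together, to 0.71, 0.93 and 0.92 at 879 bp and to 0.22, 0.63 and 0.22 at 1212 bp.

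Counted over all regions, 84 of 375 (22.4%) overlapped a window where both TEAD4 samples stood 1 or more above the control. A further kind of neighbour, a window enriched in both TEAD4 samples but below 1 in the control, was overlapped by 186 regions, and 188 overlapped neither of these kinds. A window enriched in the control but not in both TEAD4 samples was the most frequent neighbour, overlapped by 316 regions (84.3%). Every member window is itself at 1 or more in the control, as were 26.4% of all windows. Neighbouring windows also share probes, so part of this overlap was built in. No such count for other regions is given here, and nothing is read from these overlaps. Seen from the other side, windows at 1 or more in both TEAD4 samples merged into 849 regions, of which 373 held a member window. In 259 of these the window with the highest TEAD4 level was itself a member, in 114 it was not, and in 185 every window was a member.

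**Figure D3:**
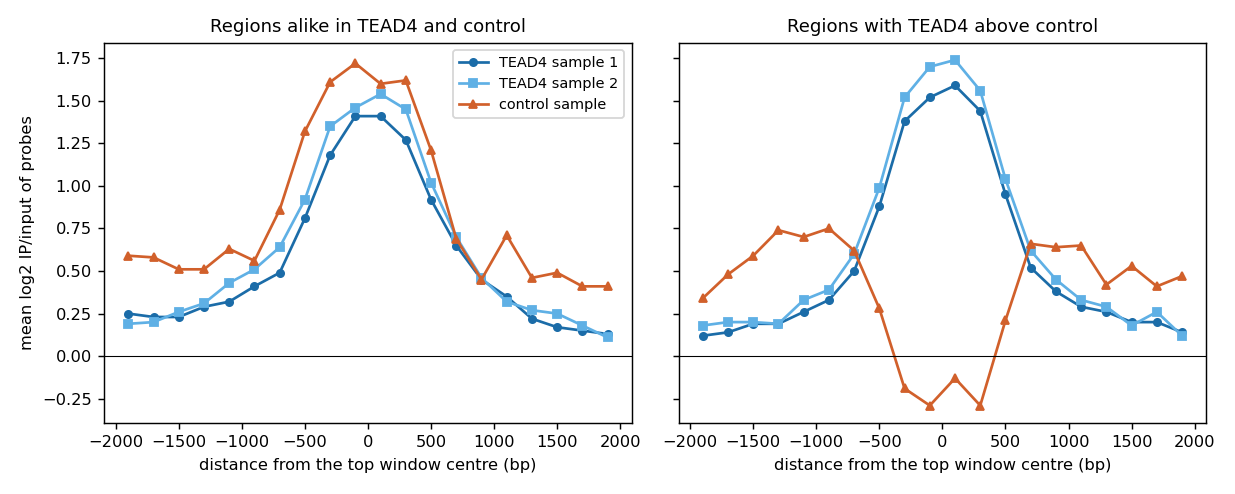
Mean log2 IP/input of probes in 200 bp bins is plotted against the distance from the centre of the top window, in the 3 samples, for the 375 member regions (left) and the 428 regions with TEAD4 1 or more above the control (right). All 3 samples peak at the centre of the members, while the control is below 0 at the centre of the other regions, as the rules that chose the regions require.

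Around the members' top windows all 3 samples peaked at the centre, and the control was higher than TEAD4 in most bins. Within 200 bp downstream of the centre the probes averaged 1.41 and 1.54 in TEAD4 and 1.60 in the control. On the upstream flank they averaged 0.81, 0.92 and 1.32 at 400 to 600 bp and 0.49, 0.64 and 0.86 at 600 to 800 bp. On the downstream flank they averaged 0.92, 1.02 and 1.21 at 400 to 600 bp and 0.65, 0.70 and 0.69 at 600 to 800 bp. The samples were nearest to each other at 800 to 1000 bp downstream (0.45, 0.46 and 0.45) and apart again at 1000 to 1200 bp (0.35, 0.32 and 0.71). Farther out, at 1800 to 2000 bp downstream, the TEAD4 samples were at 0.13 and 0.11 and the control at 0.41. The control's median over all windows was 0.26, but a median of windows and a mean of probes are unlike measures. The regions had a median length of 911 bp (270 to 2205), and 160 of them were a single window.

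Contractile genes were represented by 6 of the 43 sarcomere genes with a window (14%), beside 2.43% of all genes. Of the 43, 11 were enriched in both TEAD4 samples, beside 5.2% of all genes, and 46.9% of all genes so enriched had a member window. These overall shares stand beside each list below too, and nothing is read from the lists' shares. Cryab, a small heat shock protein that protects the Z-disc, shares a divergent promoter with Hspb2, another small heat shock protein. The window 29 bp upstream of the Cryab start was at 1.99 and 2.00 in TEAD4 (2.00 ± 0.00, SD, n = 2) and 1.62 in the control. The next window, 272 bp downstream of that start, was at 2.21, 2.44 and 1.13, with TEAD4 above the control. Myom2, an M-band protein, was at 1.66, 1.62 and 1.53, and Mylpf, a fast-muscle regulatory light chain, at 1.70, 1.46 and 1.44 in a window also annotated to Tbc1d10b. In these 3 genes the control was the lowest sample.

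In the remaining sarcomere genes the control was the highest. Cavin4 [2310039E09Rik], a muscle caveola protein, was at 1.33, 1.49 and 1.58. Acta1, skeletal actin, was at 1.06, 1.39 and 1.64 in 3 probes 1662 bp downstream of the start. Tpm3, slow-muscle tropomyosin, was at 1.07, 1.26 and 1.65 in a window 7692 bp downstream of the annotated start, with input spots at percentile 2.02 to 4.73.

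Among the 28 myogenic regulators Vgll4 was the single member (3.57%, beside 2.43% of all genes; 4 enriched in both TEAD4 samples). Its product binds TEAD factors in place of YAP. The window lay 719 bp upstream, held 3 probes, and was at 1.69 and 1.61 in TEAD4 (1.65 ± 0.06, SD, n = 2) and 2.27 in the control. Of 35 excitation-contraction genes 4 were members (11.4%; 7 enriched in both TEAD4 samples). Chrnb1, a subunit of the muscle acetylcholine receptor, was at 1.22, 1.34 and 1.72 on spots with very dim input, at percentile 0.539 to 1.04. Cacnb1, a calcium channel subunit, was at 1.19, 1.19 and 1.76, and Casq1, calsequestrin of the sarcoplasmic reticulum, at 1.03, 1.10 and 1.87. Dok7, which organises the neuromuscular junction, was at 1.08, 1.00 and 1.12. The control was highest in each of these 5 genes. Of 18 fusion and adhesion genes, 5 of them enriched in both TEAD4 samples, the members were Bin1 and Itga7, whose window, also annotated to Bloc1s1, was at 1.30, 1.14 and 1.18.

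Stress and housekeeping lists held members as well, beside 2.43% of all genes; in each of the 3 lists that follow, 6 genes had a window at 1 or more in both TEAD4 samples, as a member must. Of 39 genes of the unfolded protein response 3 were members (7.69%): Hspa5, the chief chaperone of the endoplasmic reticulum, at 1.31, 1.32 and 2.50, Syvn1, a ubiquitin ligase of that compartment, at 1.08, 1.12 and 2.29, and Ppp1r15a [Myd116], a phosphatase subunit, at 1.26 ± 0.34 (SD, n = 2) in TEAD4 and 1.12 in the control. In Hspa5 and Syvn1 the control exceeded both TEAD4 samples by more than 1. Of 25 heat shock genes 4 were members (16%): Cryab, Hspb2, Serpinh1 and Hsph1 [Hsp110]. Serpinh1, the collagen chaperone, was at 1.37, 1.43 and 1.85. Of 29 housekeeping and glycolysis genes 4 were members (13.8%), with Actb at 1.18, 1.28 and 1.30, Ldha at 1.11, 1.34 and 1.08, Ubb at 1.04, 1.08 and 1.39, and Tpi1 at 1.31, 1.17 and 2.26.

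Beside the same 2.43% of all genes, cell cycle genes gave 4 of 34 (11.8%), with 5 enriched in both TEAD4 samples. Myc, a growth-promoting transcription factor, was at 1.35, 1.51 and 1.80 in 6 windows. Ccnd1, cyclin D1, was at 1.20, 1.16 and 3.21 in a window 3852 bp upstream, and Ccnd2, cyclin D2, at 1.40, 1.14 and 1.72. Immediate early genes gave 3 of 32 (9.38%; 9 enriched in both TEAD4 samples), with Dusp6, a MAP kinase phosphatase, at 1.04, 1.23 and 1.20, and Ier3 at 1.12, 1.73 and 2.45. Of 36 translation factors 3 were members (8.33%; 6 enriched in both TEAD4 samples), among them Eif2s1 at 1.45, 1.91 and 1.90 in a promoter shared with Atp6v1d. Of 84 ribosomal protein genes 3 were members (3.57%; 7 enriched in both TEAD4 samples): besides Rplp0 these were Rpl21 at 1.18, 1.08 and 1.33 and Rps28 at 1.05, 1.21 and 1.03.

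Lists of genes of other tissues stood beside the same 2.43%. None of 24 liver genes or 26 neuronal genes had a window at 1 or more in both TEAD4 samples, beside 5.2% of all genes, so none could be a member. In the control 15 and 26 of them had a window at 1 or more, as did 85.6% of all genes (14134 of 16511). Of 26 haematopoietic genes 1 was a member (3.85%), Zap70, a T-cell kinase, at 1.12, 2.34 and 1.95. Of 825 olfactory receptor genes 2 were members (0.242%), Olfr459 at 1.40, 2.60 and 2.74 and Olfr684 at 1.05, 2.03 and 1.89. In these 3 genes TEAD4 sample 1 was well below the other samples.

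Many members lay near annotated starts. Of 371 regions with an annotated start, 158 (42.6%, exact binomial interval 37.5% to 47.8%, counting error only) had the top window within 500 bp of it. By windows the share was 41.6% of members, 37.6% of windows enriched in the control only, 17.8% of all windows and 14.7% of windows with TEAD4 1 or more above the control. The control's enrichment itself was more frequent near starts: 56.2% of all windows within 500 bp were at 1 or more, against 20.2% of the others. Among these sets the members' share was nearest to that of windows enriched in the control only; neighbouring windows share probes, and no test was made. The array's annotation placed 8.03% of member windows in divergent promoters, against 3.26% of all windows, 3.52% of those in the control only and 4.38% of those with TEAD4 above.

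The spot signals behind the members were not unusually dim in input. The median percentile of a member window's input signal among all windows was 48.6, 52.6 and 46.3 in TEAD4 sample 1, sample 2 and the control, and that of its IP signal was 91.5, 96.4 and 81.6. In 147 regions the input was in the upper 50% of windows in all samples, and in 35 it was in the lowest 10% in all. Arsj and Chrnb1 were of the dim kind, and Notch2 of the bright, at percentile 96.1 to 98.1.

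Many of the calls did not hold in all 3 samples without the highest probe of each sample. In 69 regions 3 or more probes of the top window were each at 1 or more in all samples, in 190 at least 2 were, and in 61 no single probe was. Without the highest probe of each sample, 97 regions kept a level of 1 or more in all 3. Sample by sample, 222 kept it in TEAD4 sample 1, 247 in sample 2 and 209 in the control. Leaving out the highest probe can only lower a level, and the members were chosen by a cut at 1, so some loss was built in. Among the 15 regions highest in all samples, Ptbp1 was the one that did not keep a level of 1 in all 3. The regions were uneven over the designs: 240 lay on design 1 and 135 on design 2. Windows of the 2 designs were at 1 or more in both TEAD4 samples in 0.799% and 0.52% of cases and in the control in 27.3% and 25.5%. The designs carry different chromosomes, apart from chromosome 9, which is on both.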

How the data were processed

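The deposited intensity values are processed spot signals, and per the file headers the authors made them with Agilent Feature Extraction 9.5.3.1. The deposited series matrix holds log10 ratios of IP to input, used only as an alternative. The probe positions' genome build was not given in the sources used here. Log2 of IP over input was computed per array and centred on the median, without control spots, probes lacking a position and probes flagged as non-uniform (236180 and 235690 probes kept on designs 1 and 2). Windows, thresholds and merging followed the rule given in the report. The members, gene lists and rules for named genes were chosen with earlier results of these data known. Named regions were the 15 highest by their lowest sample, the 5 with most windows (ties by the lowest sample), the 5 with the smallest range, the 3 highest in control and in TEAD4, up to 4 members of each list (all 6 of the YAP-responsive and sarcomere lists) and those at the thresholds. Gene symbols follow RefSeq's GRCm38.p6 table, in which 16168 of 16533 array symbols were found by accession, 203 by name and 113 as older synonyms; where it differs, the array's symbol is in brackets. No test was run on values that chose the members. Window and merging steps were tested on simulated data. Alternatives used limma 3.58.1 in R 4.3.3 and Python 3.11.15 with numpy 2.4.6, pandas 2.3.3 and scipy 1.17.1.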

Additional observations from a re-analysis of the deposited data

How the results depend on the processing

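With 1 control sample, and its values wider than those of TEAD4, the count of members depended on the setting. The count of 375 regions became 2419 at 1.5-fold, 20 at 3-fold, 131 with windows reaching 1000 bp and 23 with normexp; without TEAD4 replicate 1 or 2 it ranged from 635 to 1244. It stayed within 1.5 times of 375 with the flagged probes kept, only probes well above background, the 250 bp reach, loess, scaling, the control also required to be within 1 of TEAD4, and the series matrix values. Loess and scaling gave similar counts but overlapped only 244 and 108 of the 375 regions. The median TEAD4 mean of 1.28 became 0.88 at 1.5-fold, 1.79 at 3-fold, 1.35 at 250 bp and 1.39 with normexp, and ranged from 1.17 to 1.26 without a replicate. The median control level of 1.52 became 1.30 at 1.5-fold, 1.99 at 3-fold, 1.43 with all samples within 1, 1.71 at 250 bp, 1.35 at 1000 bp, 1.22 with normexp, 1.45 with loess and 1.17 with scaling, and ranged from 1.53 to 1.59 without a replicate. The share near a start, 42.6%, became 35% at 3-fold, 47.9% at 250 bp, 28.5% at 1000 bp and 65.2% with scaling, and ranged from 37% to 45% without a replicate. The cause of these shifts was not tested. Of 1094 recomputed levels of the 65 named regions, 584 moved by less than the SD of the TEAD4 samples, 508 by more, and 2 changed sign: the control at Ppp1r15a [Myd116], to -0.38 at 250 bp and -0.13 with normexp. A TEAD4 level recomputed without 1 replicate cannot move by more than that SD, so these levels add nothing to the comparison. For control levels the SD of the TEAD4 samples served only as a yardstick and does not measure the control's own spread. No paired analysis was possible because the control has 1 replicate and no test was made.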

Other observations

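Member regions were spread unevenly over the chromosomes. Chromosome 5 had 35 regions and the highest share of member windows, 0.345% of its windows, and chromosome 7 had the most regions, 41. The X chromosome had 2 regions, made of 3 of its 15931 windows (0.0188%). They lay at Rbmx2 (1.15 and 2.76 in TEAD4 and 2.66 in the control) and at Utp14a (1.23, 1.14 and 1.64). Chromosomes 13 and 14 had 4 and 6 regions. Chromosomes 5 and 7 are on design 1, and chromosomes 13, 14 and X on design 2. A difference between chromosomes of different designs cannot be told apart from one between the designs. Chromosome 11, also on design 2, had 39 regions (0.277% of its windows).

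Several genes had more than 1 separate member region: 9 names did, and Tnrc18 [Zfp469] had 3. Ccnd1, Meis2, Serpinh1 and the histone demethylase gene Kdm6b [Jmjd3] were among those with 2.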
